A study of Macaca mulatta and Mus musculus and Rattus norvegicus with 12 samples.

Results

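Cells keep a set of chaperones, proteins that fold other proteins and hold damaged ones in solution, together with a small set of genes that respond to cooling, and 41 such genes were followed in osteocyte-enriched bone of the calvaria (skull roof) and the tibia of mouse, rat and rhesus macaque. The 41 genes were chosen by name and function after the difference between macaque calvaria and tibia in these data was known, so the macaque values are given as a description and without p-values. Of 41 members, 38 could be tested among 10536 gene symbols that had a read in at least 1 library of every species. They fell into 8 classes: cytosolic HSP70 and HSP110 proteins, HSP90 and its cochaperones, J-domain and HSP70 adaptor proteins, small heat shock proteins, chaperones of the endoplasmic reticulum (ER), chaperones of mitochondria, heat shock factors, and cold-shock proteins. All 41 had a row in the mouse and rat tables. Macaque rows were found for 39, of which 31 had a row under their own symbol, 8 were found under a LOC number that RefSeq names (HSPA1L, DNAJB1, DNAJB4, ZFAND2A, HSPB6, DNAJB9, HSPE1 and CIRBP), and HSPA2 and HSPA13 had no row in the macaque table used here. HSP90AA1 was not among the genes tested because the rat table held 0 reads for it, and its values come from fits over all symbols of a species.

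The 12 libraries were made from poly(A)+ RNA. Mouse calvaria (M4 and M8) and mouse tibia (M5 and M7) each had 2 libraries from C57BL6 animals of 4 months, pooled from 3 animals a library. Rat calvaria (R1) and rat tibia (R3) each had 1 library from Wistar animals of 6 months, pooled from 2 animals. Macaque calvaria (G1, G3 and T1) and macaque tibia (G2, G4 and T2) each had 3 libraries, each from 1 animal. The labels give the macaques an age of 4 to 6 months, whereas the study's methods give years. No group was treated, and the animals are described as female. The periosteum was removed and the bone was digested briefly with collagenase before freezing in every group, and marrow was spun out of the rodent tibias. Rodent calvariae were cut so as to avoid marrow spaces, macaque samples were sawn, and spinning is not stated for either. The label calls the cells osteocytes, yet whole bone pieces were ground up, so the RNA is that of a mixture, in which fewer cells of a type and less RNA per cell cannot be told apart.

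Under heat or other stress that unfolds proteins, heat shock factors such as HSF1 bind to the promoters of inducible chaperone genes, and HSP70 then works in cycles with J-domain proteins, which deliver the substrate, and with HSP110 and BAG proteins, which release ADP from it. Each compartment has its own set: the ER relies on HSPA5 (BiP), HSP90B1 (GRP94) and the collagen chaperone SERPINH1 (HSP47), and mitochondria on HSPA9 and on the HSPD1 and HSPE1 folding chamber. Osteoblasts and young osteocytes secrete large amounts of type I collagen and so depend on the ER members, whereas CIRBP and RBM3 are RNA-binding proteins that are known to increase on mild cooling.

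The last 30 coding bases of 6 mouse members are shown because their ends differ between these cytosolic and ER chaperones. The results are ordered by this distinction. Capitals mark the last 4 codons, and the stop codon follows in lower case. Sequences are from GENCODE vM21 transcripts (GRCm38), 5′ to 3′ on the coding strand.
Hspa8: tcaggccccaccattGAAGAGGTGGATtaa
Hsp90aa1: gacacatcacgcatgGAAGAAGTAGACtaa
Hsp90ab1: gatgcctcgcgcatgGAAGAGGTGGATtaa
Hspa5: gaggatacatcagaaAAAGATGAGTTGtag
Hsp90b1: aaggaatctacagagAAGGATGAATTGtaa
Serpinh1: aagggagacaagatgCGAGATGAGTTGtag

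The capital bases of Hspa8 (chr9:40805088-40805117, plus strand), Hsp90aa1 (chr12:110691540-110691569, minus strand) and Hsp90ab1 (chr17:45568015-45568044, minus strand) encode the same 4 residues, the tail that docks cochaperones such as STIP1, although Hsp90aa1 spells them with other codons. Those of Hspa5 (chr2:34776084-34776113, plus strand) and Hsp90b1 (chr10:86691102-86691631, minus strand, interrupted by an intron) encode another shared set of 4 residues, the signal that returns a protein to the ER. Serpinh1 (chr7:99346120-99346149, minus strand) shares 3 of these 4 with Hspa5. All of this is coding sequence. At these positions 0 of the ER genes shared a residue with Hspa8.

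Near-identical copies limit what the counts of some members mean. In the mouse annotation 7 of 41 members had a transcript of another gene at 95% identity or more over at least 500 bases, namely Hspa8, Hsp90aa1, Dnaja1, Dnajb6, Hspb1, Hspd1 and Hspe1. Hspa8 had 6 such copies, all over at least 1940 aligned bases and at 95.3% to 99.7% identity. Exons of 14 members overlapped exons of another gene, and the reads were counted without regard to strand. In rat, HSP90AA1 had 0 reads, HSPA9 had 14 and 20, and HSPA8 had 136 and 34, against 6661 and 7852 for HSP90AB1, so no level is compared between species for these genes.

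Between 7951585 and 16826535 reads per library fell on named genes. Library M8 stood apart from the other mouse libraries. It had 2 reads on XIST, the RNA of the inactive X chromosome, where M4, M5 and M7 had 11106, 15771 and 12083, and it alone had reads on the Y-linked genes DDX3Y (1049), EIF2S3Y (512), UTY (200) and KDM5D (98), which goes against the description of the mice as female. The counts of mouse calls are therefore given with and without M8, as are the mouse values that change most without it. Marker genes of other tissues also differed between libraries, and their part in the results was not tested. The 6 osteocyte markers were detected in every mouse and macaque library and 5 of 6 in rat, at a summed 4546 to 5688 RPM (reads scaled to a common total on named genes) in macaque calvaria against 7747 to 19463 in tibia. In mouse the osteocyte markers summed to 981 to 1854 RPM in calvaria against 8016 to 10434 in tibia, and in rat to 500.2 against 7242. In macaque calvaria the erythroid markers summed to 24993 to 32532 RPM against 7513 to 9824 in tibia, and the neutrophil markers to 36484 to 53694 against 7791 to 14154. Neutrophil markers were also higher in rodent calvaria, at 90622 to 113570 RPM against 58112 to 63414 in mouse and 79491 against 42815 in rat. Erythroid markers, 4 of 8 with a row in mouse, summed there to 886 RPM in M4, 2368 in M8, 1264 in M5 and 1343 in M7. In rat they summed to 66172 against 37115. Adipocyte markers summed to 2107 to 2838 RPM in macaque calvaria against 875 to 1876 in tibia. The values were 425 to 807 against 1288 to 1839 in mouse and 469 against 505 in rat. Endothelial markers summed to 376 to 544 RPM in macaque calvaria against 510 to 645 in tibia. In mouse they summed to 119 to 132 against 183 to 201, and in rat to 209 against 397. All macaque libraries were sequenced on lane 4 and all rodent libraries on lane 3, so species, lane and annotation cannot be told apart.

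In macaque, members of the cytosol, the ER and the mitochondria were called higher in calvaria, and the steepest differences were those of 2 cytosolic partners of HSP70, DNAJB1 and HSPH1, at more than 7-fold. Calls rest on edgeR's quasi-likelihood test, with a Benjamini-Hochberg false discovery rate below 0.2 together with a difference above 1.1-fold. By this rule 13 of the 38 members tested were called higher in calvaria and 2 were called higher in tibia, beside 14.1% and 12.6% of all genes tested. Because the members were chosen with this contrast known, nothing is read from these shares. The median log2 fold change was 0.18 over the members and 0.01 over all genes tested. At a false discovery rate under 0.05 the counts were 10 and 0, beside 6.91% and 5.67% of all genes. With assumed pairs of calvaria and tibia as a block they were 14 and 4, beside 17.4% and 16.5%. By library size alone, a scaling that moved the median of all genes by -0.0995, they were 12 and 4. The share of all genes called was not counted for that scaling. The lowest calvaria library lay above the highest tibia library for 15 members, and the reverse held for 3, beside 16.0% and 14.5% of all genes. On RPM without normalization factors, 5 of those 15 overlapped between the sites (HSPA14, HSPB8, HSP90B1, CIRBP and RBM3). The share of all genes on RPM was not counted.

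For the 13 members called higher in calvaria, the log2 difference between the sites ran from 0.43 to 3.05 among the libraries labelled G and from 0.11 to 2.78 between T1 and T2. These are the libraries on which the 13 were called, so the values describe them and support no call. What the letters stand for is not stated. The plot of all members shows 25 of 38 values above 0 in macaque, beside 5336 of all 10536 genes tested. In mouse 25 of 38 lay above 0, beside 5701 of 10536. Rat values of the small heat shock proteins lay far to the left.

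**Figure D1:**
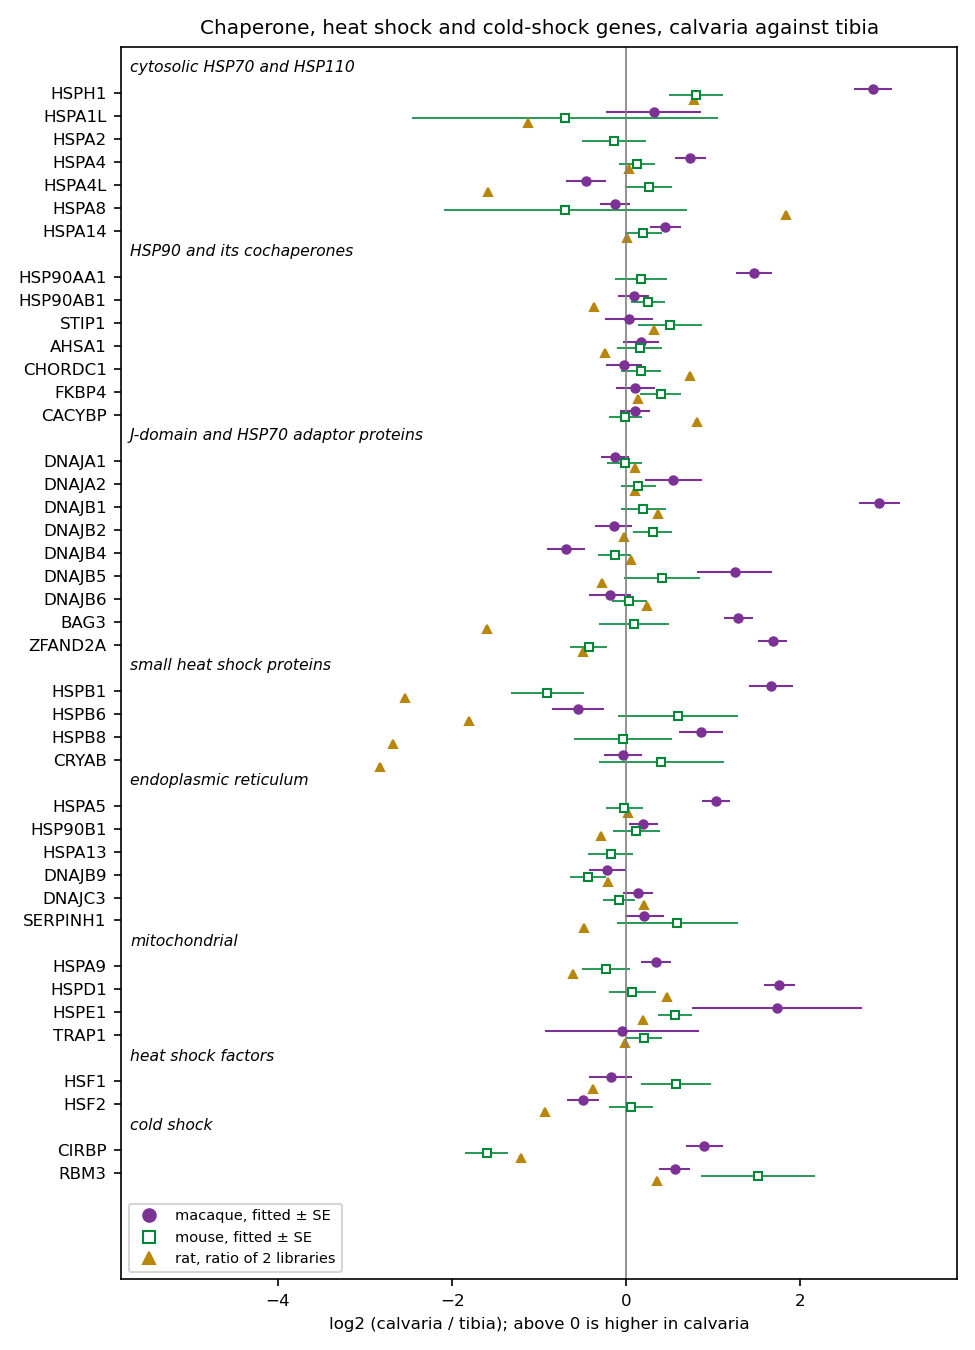
Log2 ratio of calvaria over tibia for the members, by class. Circles with bars are fitted macaque values with their standard errors (SE), open squares with bars are fitted mouse values with SE, and triangles are rat ratios from 1 library a site; HSPA2 and HSPA13 have no macaque value, and HSP90AA1, HSPA2 and HSPA13 no rat value. HSPH1 and DNAJB1 in macaque stand farthest to the right at 2.83 and 2.91, and CRYAB in rat farthest to the left at -2.82.

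In mouse 0 of 38 members were called in either direction, beside 0.304% of all genes tested, and 3 had an unadjusted p under 0.05, beside 7.48% of all genes. DESeq2 and edgeR's exact test each called 1 member, CIRBP, and the share of all genes was not counted for them. The mouse sites did not overlap for 6 members with calvaria above tibia and for 6 with tibia above calvaria, beside 19.2% and 20.8% of all genes. Without M8 the mouse fit called 11 members, 8 higher in calvaria and 3 higher in tibia, beside 12.7% and 12.3% of all genes. Without M4, which leaves M8 as the lone calvaria library, it called 24, with 14 higher in calvaria and 10 higher in tibia, beside 23.0% and 24.9%. In these fits the lone calvaria library is assumed to vary like the tibia libraries. Both fits called 9 members, and 5 of these 9 had the same direction in both: HSPH1, HSP90AB1 and HSPE1 higher in calvaria, and ZFAND2A and CIRBP higher in tibia. The fits share both tibia libraries, so nothing is read from this count.

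In rat, which has no replicates, 0 members passed a log2 ratio of 2 toward calvaria and 3 passed it toward tibia, beside 0.769% and 6.39% of all genes. The ratio was above 0 for 18 of 38 members, beside 36.7% of all genes. These ratios were scaled by library size alone, and their median was -0.198 over all genes tested. With normalization factors (TMM) 4 members passed the threshold, 1 of them toward calvaria, and the share of all genes was not counted.

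Among the cytosolic HSP70 and HSP110 genes, macaque calvaria had more RNA of HSPH1 (HSP110, which exchanges nucleotide on HSP70 and pulls apart aggregates together with it), of HSPA4 (a relative of HSPH1) and of HSPA14 (a ribosome-associated HSP70), whereas the constitutive HSPA8 was near equal. HSPH1 had 17196, 16872 and 10219 reads in G1, G3 and T1, and 2343, 2207 and 2655 in G2, G4 and T2. No calvaria library came near a tibia library. The normalized level was 2740 ± 772 CPM (counts scaled to a common library total; SD, n = 3) in calvaria and 385 ± 2.93 in tibia, a log2 fold change of 2.83 (SE 0.218) or 7.11-fold.

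HSPA4 had 720, 527 and 757 reads in the calvaria libraries and 472, 424 and 486 in the tibia libraries, a log2 fold change of 0.73 (SE 0.177). HSPA14 differed by 0.45 (SE 0.177) in the same direction. HSPA8, which folds newly made proteins in unstressed cells, had 18164, 22180 and 20385 reads in calvaria and 24000, 24041 and 28761 in tibia. Its sites overlapped after normalization, and its log2 fold change was -0.13 (SE 0.171). HSPA4L, a further HSP110 relative, had 207, 197 and 197 reads in calvaria and 353, 345 and 242 in tibia. It was not called at a log2 fold change of -0.46 (SE 0.228), with T2 close to the calvaria libraries. It was called higher in tibia in 5 alternatives, namely by library size alone, under both stricter filters on low counts, with the assumed pairs as a block, and without T2. HSPA1L, a testis-type HSP70, had only 12 to 47 reads a library and a log2 fold change of 0.32 (SE 0.547).

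**Figure D2:**
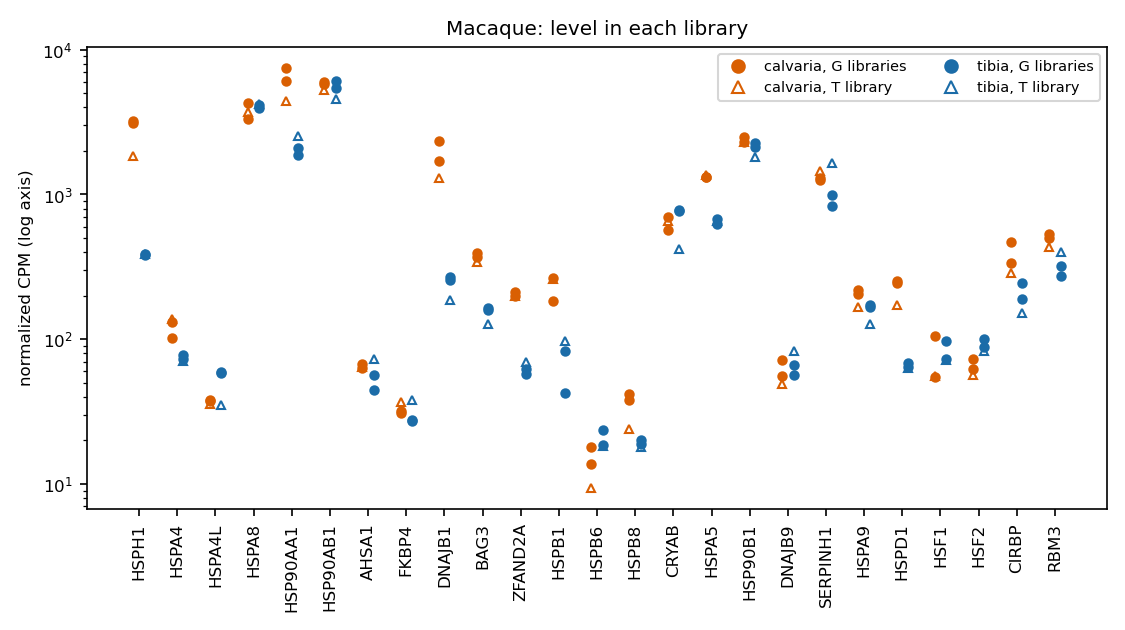
Normalized CPM (log axis) of 25 members in the 6 macaque libraries, with calvaria in orange and tibia in blue, filled circles for the G libraries and open triangles for the T library of each site. For HSPH1, DNAJB1, HSPA5, HSPD1 and ZFAND2A every calvaria point lies well above every tibia point, whereas for HSPA8, HSP90AB1 and CRYAB they overlap. HSP90AA1 is scaled to totals of all macaque symbols, so its height cannot be compared with that of the other members.

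In mouse HSPH1 was also higher in calvaria, with 814 and 1228 reads in M4 and M8 whereas M5 and M7 had 714 and 626, but it was not called (log2 fold change 0.81, SE 0.309, edgeR quasi-likelihood test, adjusted p = 0.651). Without M8 the log2 fold change was 0.34 (edgeR quasi-likelihood test, adjusted p = 0.156), and without M4 it was 1.16. M8 was thus the highest of the mouse libraries and M4 lay much nearer to the tibias. In rat HSPH1 had 1166 reads in calvaria and 620 in tibia, a log2 ratio of 0.78, so its direction was the same in the 3 species, although with all libraries only the macaque difference was called. Both mouse fits that leave out a calvaria library called it.

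Mouse HSPA8 had far fewer reads in M8 than in any other library. M4 had 5625 reads, M8 had 99, and the tibia libraries M5 and M7 had 5231 and 4508. In normalized CPM M8 had 11.0 and the other libraries 435 to 535. The near copy GM15459, whose transcript matches Hspa8 at 99.7% identity over 1941 bases, had more reads in M8 than elsewhere, with 2863 in M8 and 1693, 1907 and 1475 in M4, M5 and M7. The sum of HSPA8 and GM15459 was 2962 in M8 against 5983 to 7318 elsewhere. Without M8 the log2 fold change of HSPA8 was 0.27 (edgeR quasi-likelihood test, adjusted p = 0.293), against -0.70 (SE 1.40) with it. In rat HSPA8 had 136 and 34 reads, and HSPA4L had 119 and 330. The other mouse members of this class were not called, and HSPA2, a testis-rich HSP70, had 98 to 137 reads in all mouse libraries.

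Of the HSP90 genes, which hold kinases and receptors in an activatable state, the inducible HSP90AA1 was higher in macaque calvaria and the constitutive HSP90AB1 was not. HSP90AA1 had 50715, 59659 and 36714 reads in calvaria and 17180, 18244 and 26292 in tibia. Every calvaria library lay above every tibia library, with T1 and T2 closest to each other. The normalized level was 6015 ± 1519 CPM (SD, n = 3) against 2171 ± 346, a log2 fold change of 1.47 (SE 0.205) or 2.77-fold in the fit over all macaque symbols. The log2 difference was 1.77 among the G libraries and 0.80 between T1 and T2.

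A further macaque row described as similar to HSP90-alpha, LOC695913, had 16741, 15963 and 12136 reads in calvaria and 4852, 5572 and 8350 in tibia, with the same log2 fold change of 1.47. Reads of these 2 rows may be shared between them. HSP90AB1 had 31907, 31014 and 29223 reads in calvaria and 32995, 35127 and 31065 in tibia, and a log2 fold change of 0.09 (SE 0.178) that was -0.02 by library size alone. Per kilobase its mean over the macaque libraries was 1399 RPKM (RPM per kilobase of exon), next to 1302 for HSP90AA1 and 1002 for HSPA8. In each calvaria library HSP90AA1 (1985, 2264 and 1287 RPKM in G1, G3 and T1) stood above HSP90AB1 (1455, 1370 and 1193), and in each tibia library HSP90AB1 stood above HSP90AA1. Here HSP90AB1 is the sum of 2 rows, whereas HSP90AA1 is 1 row without LOC695913.

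The cochaperones of HSP90 did not follow HSP90AA1. AHSA1, which speeds the ATPase of HSP90, had 348, 351 and 357 reads in calvaria and 341, 259 and 499 in tibia, with T2 the highest library. FKBP4, a prolyl isomerase of steroid receptor complexes, had 176, 161 and 204 reads in calvaria and 167, 157 and 261 in tibia. With STIP1 (which links HSP70 to HSP90), CHORDC1 and CACYBP, 0 of 5 cochaperones was called in macaque. Beside this, 14.1% of all genes tested were called higher in calvaria and 12.6% higher in tibia, so nothing is read from the count. The log2 fold changes of the 5 ran from -0.02 (CHORDC1) to 0.17 (AHSA1).

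In mouse 0 of the 6 members tested were called, beside 0.304% of all genes, and HSP90AB1 and FKBP4 did not overlap between the sites. The log2 fold changes of STIP1 and CHORDC1 were 0.50 and 0.17, and -0.04 and -0.06 without M8. HSP90AB1 had 18242 and 15012 reads in calvaria and 18085 and 13575 in tibia, a log2 fold change after normalization of 0.25 (SE 0.196, edgeR quasi-likelihood test, adjusted p = 0.783). It moved little without M8 (0.27) or without M4 (0.22). Mouse HSP90AA1 had 292, 366, 355 and 310 reads in M4, M8, M5 and M7, a log2 fold change of 0.17 (SE 0.297). In rat the ratios of the 6 genes measured ran from -0.36 (HSP90AB1) to 0.82 (CACYBP).

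J-domain and adaptor proteins held the largest fold change of all members. DNAJB1 (HSP40, the main partner of inducible HSP70) had 9357, 12209 and 7141 reads in macaque calvaria and 1555, 1545 and 1283 in tibia. The sites lay far apart, although the calvaria libraries differed among themselves. The normalized level was 1780 ± 530 CPM (SD, n = 3) against 237 ± 43.4, a log2 fold change of 2.91 (SE 0.232) or 7.51-fold, and it was 2.93 among the G libraries and 2.78 between T1 and T2.

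ZFAND2A (AIRAP, a stress-induced partner of the proteasome) had 1088, 1097 and 1105 reads in calvaria and 350, 360 and 478 in tibia, a log2 fold change of 1.68 (SE 0.165). BAG3, which passes HSP70 clients to autophagy, had 2167, 1914 and 1884 reads in calvaria and 1004, 917 and 876 in tibia, a log2 fold change of 1.29 (SE 0.164). These genes varied little among the libraries of a site. DNAJB5, with 16 to 127 reads a library, was called at 1.25 (SE 0.431), but its log2 difference was 2.04 among the G libraries and 0.19 between T1 and T2. DNAJB4, another J-domain protein of the same type as DNAJB1, went the other way at -0.69 (SE 0.221). The remaining DNAJA1, DNAJA2, DNAJB2 and DNAJB6 were not called, with log2 fold changes of -0.19 (DNAJB6) to 0.54 (DNAJA2).

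None of these genes was called in mouse, and DNAJA1, DNAJB1, DNAJB6 and BAG3 pointed in opposite directions in the fits without M8 and without M4. DNAJB1 had 736 and 951 reads in calvaria and 860 and 813 in tibia, a log2 fold change of 0.20 (SE 0.262, edgeR quasi-likelihood test, adjusted p = 0.849). Without M8 it was -0.13 and without M4 it was 0.47. BAG3 had 1182 reads in M4 and 460 in M8, with the tibias between them at 789 and 878, so its log2 fold change was 0.55 without M8 and -0.59 without M4. ZFAND2A was lower in both mouse calvaria libraries, with 396 and 395 reads against 711 and 506, a log2 fold change of -0.43 (SE 0.213, edgeR quasi-likelihood test, adjusted p = 0.721). It was -0.55 without M8 and -0.33 without M4, and both of those fits called it. In rat the ratio of ZFAND2A was -0.49, that of BAG3 was -1.60 and that of DNAJB1 was 0.37.

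The small heat shock proteins, which bind unfolding proteins without using ATP, are given for each species in turn, and differences between the species were not tested. In macaque HSPB1 (HSP27) and HSPB8 were called higher in calvaria, whereas HSPB6 and CRYAB were not called. HSPB1 had 1447, 956 and 1438 reads in calvaria and 504, 244 and 670 in tibia, a log2 fold change of 1.66 (SE 0.258). Its lowest calvaria library, G3, lay above the highest tibia library, T2. HSPB8, which works with BAG3, had 208, 218 and 133 reads in calvaria and 123, 109 and 123 in tibia, a log2 fold change of 0.86 (SE 0.254).

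HSPB6 had 75, 94 and 52 reads in macaque calvaria and 113, 136 and 125 in tibia, a log2 fold change of -0.55 (SE 0.299) that was not called although the sites did not overlap. It was called higher in tibia in 5 alternatives, namely by library size alone, with the length offset, with the assumed pairs as a block, and without G3 or T2. CRYAB, the most abundant of the class per kilobase at 292 RPKM, had 3139, 3631 and 3633 reads in calvaria and 4735, 4478 and 2893 in tibia, a log2 fold change of -0.04 (SE 0.214). T2 was its lowest library and the tibias G2 and G4 were its highest. Of the 11 skeletal muscle markers, 10 had a row in macaque and summed to 5.78 to 7.53 RPM in calvaria and 7.35 to 14.4 in tibia, with CKM at 0 in all 6 libraries.

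In rat these genes gave the only ratios past the threshold when scaled by library size alone. HSPB1 had 131 reads in calvaria and 703 in tibia, a log2 ratio of -2.54. HSPB8 had 13 and 81 reads, a ratio of -2.68, and CRYAB had 55 and 362, a ratio of -2.82. HSPB6 followed at -1.81 with 89 and 287 reads, so the tibia library was higher for all 4 genes. The summed muscle markers stood at 9.19 RPM in the rat calvaria, with CKM at 0, and at 1281 in the rat tibia, with all 11 detected, and 8 of the 9 tested were past the same threshold toward tibia. The small heat shock proteins HSPB6, HSPB8 and CRYAB are abundant in muscle, and the part of muscle RNA in these ratios was not tested.

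In mouse the muscle markers summed to 3005 in M4, 1667 in M8, 499 in M5 and 2494 RPM in M7, so neither site was uniformly higher. CRYAB had 2717 reads in M4, 498 in M8, 998 in M5 and 1532 in M7. HSPB6 had 482, 185, 111 and 347 reads in the same order, and HSPB8 had 220, 82, 115 and 213. For each of the 3 genes M4 and M7 were the highest libraries, as they were for the muscle markers. M8 stood above M5 for the muscle markers and HSPB6, but below M5 for CRYAB and HSPB8. The part of muscle RNA in these mouse values was not tested. HSPB1 had 73 and 37 reads in calvaria and 111 and 115 in tibia. Its log2 fold change was -0.91 (SE 0.416, edgeR quasi-likelihood test, adjusted p = 0.707), and it was -0.58 without M8 and -1.33 without M4. Without M8 the log2 fold change of CRYAB was 1.13 and that of HSPB6 was 1.07, both called, and without M4 they were -1.1, called, and -0.09.

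**Figure D3:**
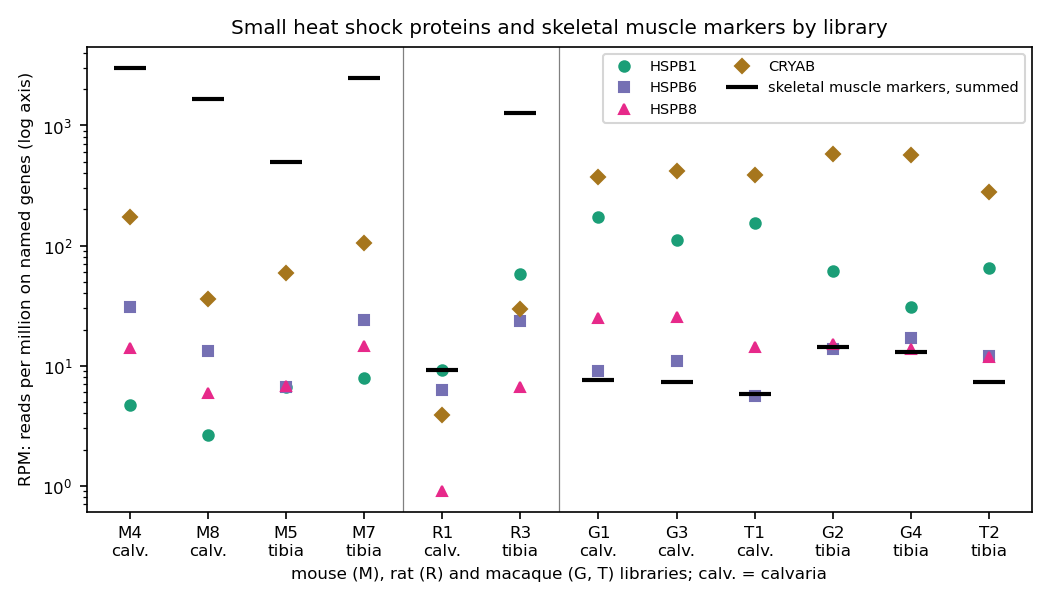
RPM on named genes (log axis) of 4 small heat shock protein genes in the 12 libraries, with the summed skeletal muscle markers as black bars; grey lines part mouse, rat and macaque. In rat the markers go from 9.19 in R1 to 1281 in R3, and all 4 genes are higher in R3, whereas in macaque the markers stay between 5.78 and 14.4.

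In the ER, 1 of 5 members tested was called in macaque, beside 14.1% of all genes called higher in calvaria and 12.6% higher in tibia. HSPA5, the ER HSP70 and the classical readout of the unfolded protein response, had 7253, 6839 and 7580 reads in calvaria and 3781, 3921 and 4501 in tibia. The sites were far apart and the libraries of a site close together, at 1335 ± 32.4 CPM (SD, n = 3) against 653 ± 27.8, a log2 fold change of 1.03 (SE 0.156) or 2.05-fold. The difference was the same among the G libraries (1.02) and between T1 and T2 (1.06).

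HSP90B1, the ER HSP90, had 13687, 12040 and 12815 reads in calvaria and 12978, 13161 and 12392 in tibia, a log2 fold change of 0.19 (SE 0.167), and was not called. SERPINH1, which guards the collagen triple helix, had 6882, 6728 and 8063 reads in calvaria and 5051, 5710 and 11284 in tibia. T2 was the highest library. The log2 fold change was 0.21 (SE 0.222), not called, and without T2 it was 0.55 and called. T2 also had the most reads on the 4 collagen genes, at 133214 RPM against 41473 to 75657 in the other macaque libraries. DNAJB9 (ERdj4), a J-domain protein that holds IRE1 in check, had 393, 292 and 271 reads in calvaria and 400, 328 and 565 in tibia, and DNAJC3 (p58IPK) differed by 0.14 (SE 0.175).

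In mouse HSPA5 was not called, with 9325 and 6685 reads in calvaria and 10605 and 7664 in tibia, a log2 fold change of -0.02 (SE 0.211, edgeR quasi-likelihood test, adjusted p = 0.989) that was 0.10 without M8 and -0.15 without M4. The rat ratio was 0.02 with 6340 and 5743 reads. SERPINH1 was the ER member that separated the mouse calvariae, with 22110 reads in M4 and 3826 in M8 around 10807 and 7783 in the tibias. The summed collagen genes were also highest in M4 and next in M5, at 49210 RPM in M4, 20441 in M8, 31129 in M5 and 20313 in M7. Without M8 the log2 fold change of SERPINH1 was 1.32, and without M4 it was -0.98. HSP90B1 was likewise highest in M4 and lowest in M8, with 11542 reads in M4, 6356 in M8, 10241 in M5 and 8064 in M7. HSPA13, an HSP70 of the secretory pathway, had 535 to 810 reads in the mouse libraries and 697 and 673 in rat.

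Of the mitochondrial chaperones, HSPD1 (HSP60) was called higher in macaque calvaria. It had 1377, 1274 and 953 reads in calvaria and 392, 399 and 435 in tibia, at 223 ± 43.5 CPM (SD, n = 3) against 65.7 ± 2.94, a log2 fold change of 1.76 (SE 0.183) or 3.39-fold. HSPE1 (HSP10), the lid of the HSPD1 chamber, had 11, 7 and 14 reads in calvaria and 5, 0 and 6 in tibia. Its log2 fold change of 1.73 (SE 0.972) was not called, and why so few reads fell on it was not tested. HSPA9 (mortalin), the HSP70 that pulls proteins into the matrix, had 1206, 1069 and 924 reads in calvaria and 1041, 970 and 878 in tibia, a log2 fold change of 0.34 (SE 0.176), and was called only with the assumed pairs as a block. TRAP1, the mitochondrial HSP90, had 0 to 35 reads a library.

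In mouse HSPE1, which has a near copy and whose exons overlap those of HSPD1, had 1018 and 823 reads in calvaria and 708 and 680 in tibia. Both calvaria libraries lay above both tibia libraries, and the log2 fold change was 0.57 (SE 0.195, edgeR quasi-likelihood test, adjusted p = 0.627), 0.61 without M8 and 0.53 without M4. HSPD1, whose gene lies head to head with that of HSPE1, had 1412 and 1828 reads in calvaria and 1773 and 1727 in tibia, a log2 fold change of 0.07 (SE 0.267) that was -0.26 without M8 and 0.34, called, without M4. HSPA9 had 1457 reads in M4, 1899 in M8, 2190 in M5 and 2268 in M7. After normalization the sites overlapped, with 211 CPM in M8 and 182 in M5. Its log2 fold change was -0.23 (SE 0.278), and it was -0.57, called, without M8 and 0.04 without M4. In rat HSPD1 had 7502 and 4959 reads, a ratio of 0.47, and HSPE1 had 278 and 223, a ratio of 0.19.

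The heat shock factors were not higher in macaque calvaria. HSF1, the regulator that the stress response depends on, had 302, 545 and 306 reads in calvaria and 442, 566 and 494 in tibia, a log2 fold change of -0.18 (SE 0.248). G3 stood above the other calvaria libraries, and without it HSF1 was called higher in tibia at -0.55. HSF2, a relative with roles in development, had 342, 381 and 313 reads in calvaria and 539, 577 and 567 in tibia. Every tibia library was above every calvaria library, at a log2 fold change of -0.50 (SE 0.184). It was called higher in tibia, but not without G2, G4 or T1, nor at a false discovery rate under 0.05. In mouse HSF1 had 96 and 149 reads in calvaria and 114 and 77 in tibia, and HSF2 had 236 and 167 against 224 and 208. Their log2 fold changes were 0.57 (SE 0.404) and 0.05 (SE 0.254). That of HSF1 rested on M8, at 0.08 without M8 and 0.94, called, without M4. In rat HSF1 had 94 and 112 reads, and HSF2 had 438 and 767.

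CIRBP, the first of the cold-shock genes, had 1836, 2454 and 1593 reads in macaque calvaria and 1151, 1417 and 1045 in tibia, at 365 ± 95.1 CPM (SD, n = 3) against 196 ± 46.6, a log2 fold change of 0.90 (SE 0.212). The difference was 0.88 among the G libraries and 0.92 between T1 and T2. In mouse the direction was the reverse. M4 and M8 had 538 and 399 reads and M5 and M7 had 1450 and 1690, at 47.8 ± 4.79 CPM (SD, n = 2) in calvaria against 145 ± 34.9 in tibia, a log2 fold change of -1.60 (SE 0.249) or 3.04-fold higher in tibia.

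This was the smallest adjusted p of the 38 members in mouse (edgeR quasi-likelihood test, adjusted p = 0.257) and above the threshold of 0.2. It passed the threshold by library size alone, with edgeR's exact test, with DESeq2, over all mouse symbols, without M4 and without M8, and with M4 and M7 taken as a pair, and its log2 fold change lay between -1.82 and -1.33 in all of the fits run. In rat CIRBP had 960 reads in calvaria and 2034 in tibia, a ratio of -1.21, also toward tibia. The difference between macaque and mouse was itself not tested.

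RBM3 had 2931, 2608 and 2406 reads in macaque calvaria and 1958, 1571 and 2760 in tibia, a log2 fold change of 0.56 (SE 0.177). It rested mainly on the G libraries, with a difference of 0.80 there and 0.11 between T1 and T2. It was not called without G4, nor at a false discovery rate under 0.05. In mouse it had 54 and 152 reads in calvaria and 37 and 46 in tibia, a log2 fold change of 1.51 (SE 0.656, edgeR quasi-likelihood test, adjusted p = 0.689) that was 0.42 without M8 and 2.14, called, without M4. In rat it had 14905 and 10710 reads, a ratio of 0.35, so that RBM3 leaned toward calvaria in the 3 species and with all libraries was called only in macaque.

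**Figure D4:**
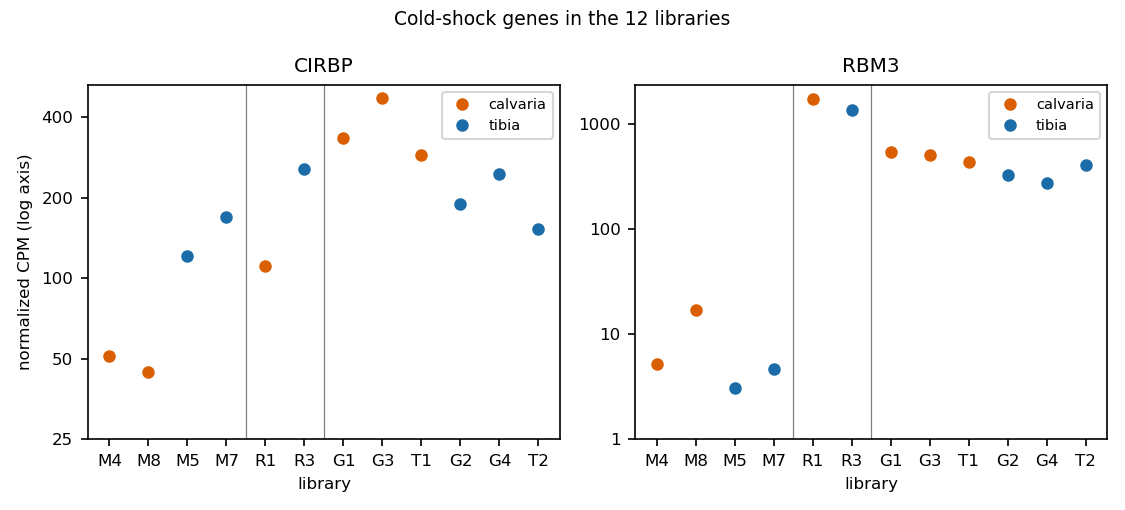
CIRBP (left) and RBM3 (right) in the 12 libraries, in normalized CPM for mouse and macaque and in CPM over the genes tested for rat (log axes), with calvaria in orange and tibia in blue; grey lines part mouse, rat and macaque. CIRBP is lower in calvaria in both rodents, for example 51.2 and 44.4 CPM in M4 and M8 against 121 and 170 in M5 and M7, and higher in calvaria in macaque.

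Other genes of these pathways, 72 that are not members, gave 62 that could be tested. In macaque 8 were called in favour of calvaria and 2 in favour of tibia, with a median log2 fold change of 0.15, beside the 14.1% and 12.6% of all genes given above. Their list was drawn up with results of these data known. Among the genes called, the largest difference was that of DNAJA4, a J-domain protein inducible by heat, at 1.68 (SE 0.205). It was the only gene called higher in calvaria of 20 tested from a list of 28 other, mainly cytosolic, chaperones. The HSP70 genes HSPA1A, HSPA1B and HSPA6 of that list were not among the genes tested. From the same list, the HSP70 regulator BAG4 (-0.43, SE 0.168) and the mitochondrial J-domain protein DNAJA3 (-0.50, SE 0.195) were called higher in tibia.

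Of 21 genes of ER stress 4 were called higher in calvaria and 0 higher in tibia, beside 14.1% and 12.6% of all genes. These 4, all of them named here, were SDF2L1 (0.90, SE 0.224), the lectin chaperone CALR (0.64, SE 0.201), the HSPA5 partner DNAJB11 (0.51, SE 0.193) and the transcription factor XBP1 (0.36, SE 0.164). Of 12 subunits of the cytosolic chaperonin TRiC and of prefoldin, CCT6A (0.51, SE 0.201) and CCT5 (0.35, SE 0.167) were called. Of 9 genes of mitochondrial quality control, CLPX (0.50, SE 0.176) was called. Nothing is read from the counts of these lists. In mouse 0 of the 62 genes passed edgeR's quasi-likelihood test, beside 0.304% of all genes. Of the 62 genes, 1 passed edgeR's exact test and 1 passed DESeq2. Leaving out 1 macaque library gave 5 to 18 calls among these genes, with 18 without T2.

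Immediate early genes, which respond within minutes to handling and to stress, were counted as well. In macaque NR4A1 (0.99, SE 0.198), ATF3 (1.47, SE 0.350), FOSB (4.74, SE 1.97) and EGR1 (0.51, SE 0.222) were called higher in calvaria, and DUSP1 (-0.51, SE 0.240) higher in tibia, of 11 genes. Of all genes tested 14.1% and 12.6% were called in these directions. The list was drawn up with results of these data known, so nothing is read from the counts. FOSB had no read in any macaque tibia library, so its fitted value is no measure of size. The summed level of the 11 genes was 2214 to 2500 RPM in calvaria and 1295 to 2731 in tibia, so the sites overlapped. Their part in the results for the members was not tested. In mouse 0 of the 11 genes were called, beside 0.304% of all genes tested.

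The plot of the mouse libraries shows where M4 and M8 part. M8 was the higher of the calvaria libraries for HSPH1 and DNAJB1, and the lower for HSPA8, BAG3, SERPINH1 and HSP90B1. For HSPE1 and CIRBP the calvaria libraries lay close together and apart from the tibias.

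**Figure D5:**
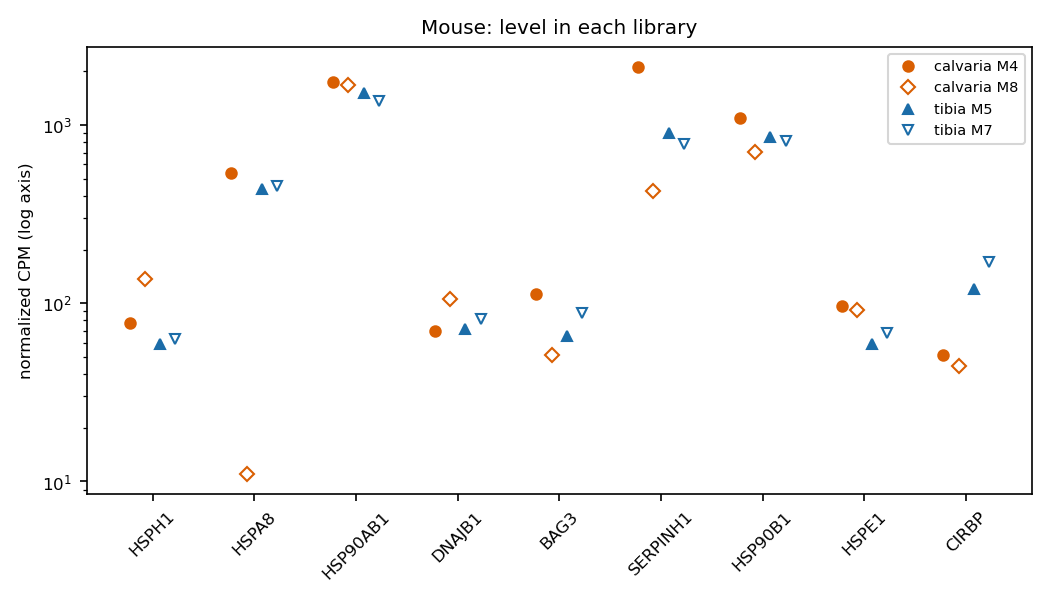
Normalized CPM (log axis) of 9 members in the 4 mouse libraries, with calvaria M4 as filled circles, calvaria M8 as open diamonds, and the tibias M5 and M7 as filled and open triangles. HSPA8 in M8 lies at 11.0 CPM against 435 to 535 in the other libraries, and SERPINH1 spans 426 (M8) to 2103 (M4) with the tibias between.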

How the data were processed

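Poly(A)+ RNA of 4 mouse, 2 rat and 6 macaque libraries was sequenced. The authors mapped the reads with HISAT2 (the submitters' notes name BWA 0.7.10-r789) to mm10, rn6 or MacaM and used HTSeq-count, without strand, on merged exons. The deposited values are raw counts per gene with no normalization or filter. The authors' normalized signal, each count multiplied by a library constant, was not used, and the deposited exonic length served for RPKM and a length check.

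Symbols were upper-cased and rows of a symbol summed, and rows naming no gene (0.00261% to 0.0663% of reads) were dropped. Macaque LOC rows were named from a RefSeq table of a newer macaque assembly, for names alone. Mouse and macaque were fitted separately in edgeR 4.0.16 (R 4.3.3; TMM, quasi-likelihood test, Benjamini-Hochberg adjustment) over 10536 symbols, and SE was the size of the log2 value over the square root of F. Normalized CPM uses TMM-scaled totals of the genes tested, or of all symbols of the species for HSP90AA1, and RPM uses all named genes. The rat ratio is scaled by library size over the genes tested, adds 1 read and has no test. Differences within a letter add 0.5 CPM. On simulated data the fits called 200 of 200 genes changed by a log2 value of 2 in mouse and in macaque, with 16.3% and 14.5% of calls on unchanged genes, and the rat rule passed 194 of 200 changed by 3, with 27.3%. The simulation gave every gene the same spread between libraries, changed only genes with many reads and held no library that stood apart as M8 does. It therefore does not give the power of the fits on the real libraries. Transcripts were aligned with BLAST 2.17.0+.

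The members and all lists were chosen with earlier results of these data known. Reads in every library are given for CIRBP, RBM3, HSF1 and HSF2 and, per class, for the 3 members with the largest macaque difference among those averaging at least 10 CPM and the one highest per length. Of each pathway list up to 3 genes a direction with the smallest macaque p were named, and other genes were named after their values were seen. The labels share no replicate numbers. The study states that bones were paired but not which, so pairs G1 with G2, G3 with G4 and T1 with T2 were assumed. Deviations from the site means over 8694 genes correlated at 0.15, 0.25 and 0.39 within these pairs, and at -0.31 to 0.07 otherwise. Alternatives were other scalings, filters, lengths, thresholds, DESeq2 1.42.0, edgeR's exact test, blocks and leaving out each library. Counts cover sampling of reads only, and p-values the spread between these libraries.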

Additional observations from a re-analysis of the deposited data

Results flagged for a closer look

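In all, 3 members had sites that did not overlap in macaque or in mouse and pointed in opposite directions in those species. Of all genes tested, 16.0% in macaque and 19.2% in mouse had calvaria above tibia without overlap, and 14.5% and 20.8% the reverse. The share of all genes with opposite directions was not counted, so nothing is read from the number of members. ZFAND2A had a log2 fold change of 1.68 in macaque and -0.43 in mouse, with a rat ratio of -0.49. HSPB1 had 1.66 in macaque and -0.91 in mouse, with a rat ratio of -2.54. CIRBP had 0.90 in macaque and -1.60 in mouse, with a rat ratio of -1.21. The difference between the species was not tested for these genes, and species, lane and annotation cannot be told apart. The macaque calvaria and tibia of CIRBP overlapped on RPM without normalization factors.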

How the results depend on the processing

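The 13 macaque members higher in calvaria numbered 10 to 14 under the other settings and 11 to 15 when 1 library was left out. The 2 higher in tibia became 0 at a false discovery rate under 0.05, 4 by library size alone, 1 with macaque symbols as printed (a setting chosen after seeing the data), and 0 to 4 with a library left out, the lowest without G2 and the highest without G3 or T2. With the assumed pairs as a replicate block they numbered 4. The 0 mouse members became 1, CIRBP, by library size alone, edgeR's exact test, DESeq2, all symbols and the replicate block that paired M4 with M7, and 0 to 24 with a library left out (24 without M4, 11 without M8). The 10 macaque pathway genes became 3 at a false discovery rate under 0.05 and 5 to 18 with a library left out (18 without T2). The 0 mouse pathway genes became 1 by the exact test, DESeq2 and all symbols, and 0 to 28 with a library left out (28 without M4, 14 without M8). The 3 rat members became 4 with TMM factors, 1 of them toward calvaria, and 9 at a log2 ratio past 1. The cause was not tested. The share of all genes called was counted for some of these settings alone, so nothing is read from the other counts.

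Of the values named for single members, 356 of the macaque and 280 of the mouse alternatives kept direction and call, 13 and 30 gained a call, 4 macaque values lost it (HSF2 without G2, G4 or T1, RBM3 without G4), and 6 and 26 changed sign. Most of the sign changes were of values called in neither fit. The false discovery rate under 0.05 was not among these alternatives, and at it macaque HSF2 and RBM3 lost their calls as well. By library size alone the log2 fold change was -0.016 for macaque HSP90AB1, and in mouse -0.023 for BAG3, -0.044 for HSPD1 and -0.061 for HSF2. With the replicate block for assumed pairs it was 0.010 for macaque CRYAB and -0.0020 for mouse BAG3, and with the other mouse pairs -0.0036 for BAG3. With 1 library left out the macaque values ran from -0.019 to 0.189 for HSP90AB1 and from -0.276 to 0.102 for CRYAB. The mouse values ran from -0.051 to 0.276 for HSPA4, -0.051 to 0.515 for HSPA4L, -5.33 to 0.268 for HSPA8, -0.085 to 0.470 for AHSA1, -0.130 to 0.465 for DNAJB1, -0.587 to 0.548 for BAG3, -0.754 to 0.661 for HSPB8, -0.086 to 1.855 for HSPB6, -1.095 to 1.126 for CRYAB, -0.153 to 0.101 for HSPA5, -0.983 to 1.322 for SERPINH1, -0.234 to 0.40 for HSP90B1, -0.258 to 0.341 for HSPD1, -0.566 to 0.043 for HSPA9 and -0.089 to 0.184 for HSF2. In mouse, library size alone moved the median of all genes by -0.115.

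Limits were 2 mouse libraries a site, of which M8 goes against the stated sex, 1 rat library a site, and members with few reads (HSPE1, TRAP1 and HSPA1L in macaque, HSPA9 in rat). Near-identical copies limit HSPA8 and 6 other members, and exon overlaps under unstranded counting concern 14 members. Both were examined in mouse alone. In macaque, HSPD1 was summed from 4 rows, HSPA8 from 3, and HSP90AB1, DNAJA1, HSPB1, HSP90B1, HSF2 and RBM3 from 2 each.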
